A study of Mus musculus with 12 samples.

Results

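The IL-6 family was followed as 10 genes, chosen by name with earlier results of these data known. They were the cytokines Il6, Lif, Il11 and Osm, the receptor chains Il6ra, Il6st, Lifr and Osmr, the transcription factor Stat3 and the feedback inhibitor Socs3. All 10 were found among the 52858 genes of the deposited tables, and 9 of them had enough reads to be tested among 15258 genes. RNA came from hearts of male mice aged 3 to 5 months, in 12 libraries and 4 groups of 3 independent samples. C57-non-IR and C57-IR hearts were from C57BL/6J mice, and Slit2-non-IR and Slit2-IR hearts were from Slit2-Tg mice. Slit2-Tg mice carry a human Slit2 cDNA under the CMV promoter, which is active in many tissues and cell types, and the transgene was first injected into oocytes of a C57 × CBA cross. Every heart was isolated and perfused with buffer on a Langendorff apparatus. After 20 min of equilibration, flow to the IR hearts was stopped for 20 min (global ischemia) and restored for 40 min (reperfusion). Non-IR hearts were perfused continuously for 80 min without ischemia. The comparisons asked how ischemia-reperfusion (IR) and the Slit2 transgene were each related to transcript levels in the heart.

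Cytokines of this family all signal through gp130, the shared receptor chain encoded by Il6st. Each cytokine also binds a partner chain. IL-6 binds the IL-6 receptor alpha chain (Il6ra), LIF the LIF receptor (Lifr) and oncostatin M the oncostatin M receptor (Osmr). Receptor assembly activates JAK kinases, which phosphorylate STAT3, and STAT3 then enters the nucleus and induces genes including Socs3, whose product binds gp130 and JAKs and shuts the signal down. In the heart this pathway is known for its links to cardiomyocyte survival, hypertrophy and the acute inflammatory response. These data measure RNA only, so neither cytokine protein nor STAT3 phosphorylation was observed. In bulk tissue, moreover, fewer cells of a type and less RNA per cell cannot be told apart.

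Values are FPKM, fragments scaled to gene length and sequencing depth, as deposited. Differences are log2 fold changes of FPKM + 1 from limma, which understate the change of genes near or below 1 FPKM, so ratios of mean FPKM are given beside them. A gene was called at a Benjamini-Hochberg adjusted p under 0.05 over all 15258 genes. Between 16601154 and 24841291 reads fell on genes in each library. The hearts were dominated by cardiomyocyte transcripts, with a sum over 8 cardiomyocyte markers of 13131 to 19946 FPKM.

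The upstream sequences of the 4 members called in the averaged IR effect are shown because they hold, or lack, letters bound by transcription factors of the acute response. They are the parts before the RefSeq start site (GRCm38.p6) that lie outside annotated exons, written in the direction of the gene, with matches in capitals. Il6 is at chr5:30012864-30013113 on the plus strand, Lif at chr11:4257318-4257556 on the plus strand, Socs3 at chr11:117969452-117969616 on the minus strand and Stat3 at chr11:100939541-100939790 on the minus strand. The Lif sequence stops 11 bases before its start site and the Socs3 sequence 85 bases before it. The Socs3 sequence lies inside the gene's span in the deposited tables, which begins farther upstream than the RefSeq start.
Il6: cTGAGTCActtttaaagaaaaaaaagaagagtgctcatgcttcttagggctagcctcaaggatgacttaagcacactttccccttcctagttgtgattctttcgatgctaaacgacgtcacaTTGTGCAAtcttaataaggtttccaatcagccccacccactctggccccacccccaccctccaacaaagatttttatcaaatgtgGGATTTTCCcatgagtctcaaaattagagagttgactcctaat
Lif: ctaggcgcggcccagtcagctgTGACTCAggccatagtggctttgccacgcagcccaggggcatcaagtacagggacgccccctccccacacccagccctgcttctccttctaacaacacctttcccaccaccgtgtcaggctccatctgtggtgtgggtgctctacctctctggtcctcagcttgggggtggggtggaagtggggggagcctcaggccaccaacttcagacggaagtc
Socs3: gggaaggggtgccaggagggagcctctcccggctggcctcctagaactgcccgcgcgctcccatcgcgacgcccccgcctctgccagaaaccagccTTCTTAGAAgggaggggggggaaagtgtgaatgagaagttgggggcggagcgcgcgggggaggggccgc
Stat3: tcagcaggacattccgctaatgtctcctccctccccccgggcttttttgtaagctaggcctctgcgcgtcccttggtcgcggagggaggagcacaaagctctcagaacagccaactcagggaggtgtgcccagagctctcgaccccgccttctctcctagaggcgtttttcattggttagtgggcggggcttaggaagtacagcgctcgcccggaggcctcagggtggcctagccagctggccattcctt

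The Il6 sequence held an AP-1 match (TGAGTCA, 249 to 243 bases before the start), a C/EBP match at the usual spacing (TTGTGCAA, 128 to 121 bases) and an NF-kB match (GGATTTTCC, 43 to 35 bases). Lif held an AP-1 match (TGACTCA, 228 to 222 bases), and Socs3 held a STAT match (TTCTTAGAA, 154 to 146 bases). No match was found for Stat3. Windows from 250 bases before to 50 bases after the start were searched on both strands in all 32851 RefSeq windows, and 9 of the 10 members had 11 windows. The letters TGANTCA (AP-1) were present in 7.81% of all windows, GGANTTTCC (NF-kB) in 1.25% and TTCNNNGAA (STAT) in 8.3%. TTGCNNAA (C/EBP) was present in 10.8% and was added after the sequences had been seen, since the C/EBP spelling first searched, TTGCNNNAA, was in 9.56% of windows and in none of the members'. TGACGTCA (CREB), in 1.79% of windows, was also in none. Il11 held an AP-1 match (TGAGTCA, 98 to 92 bases before the start), and Osmr held one just past its start, whereas Il6ra, Il6st and Lifr held none. These are matches of letters and not shown to be bound sites.

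Il6, Lif, Socs3 and Stat3 were higher after IR when both genotypes were considered jointly, and no other tested member passed the adjusted threshold. In the IR effect averaged over C57BL/6J and Slit2-Tg hearts, 4 of 9 tested members rose and 0 fell, beside 3.48% of all tested genes called in either direction. At an unadjusted p under 0.05 there were 6 of 9 members, against 15.9% of all tested genes. The 6 IR libraries lay wholly above the 6 non-IR libraries for 5 of 9 members (Il6, Lif, Osm, Socs3 and Stat3), and the sides did not overlap, in either direction, for 3.40% of all tested genes. The median log2 fold change of the 9 members was 0.49, and that of all tested genes was 0.0035. All 9 would also have passed the filter on the non-IR libraries alone, so none was tested only because it was high after IR.

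**Figure D1:**
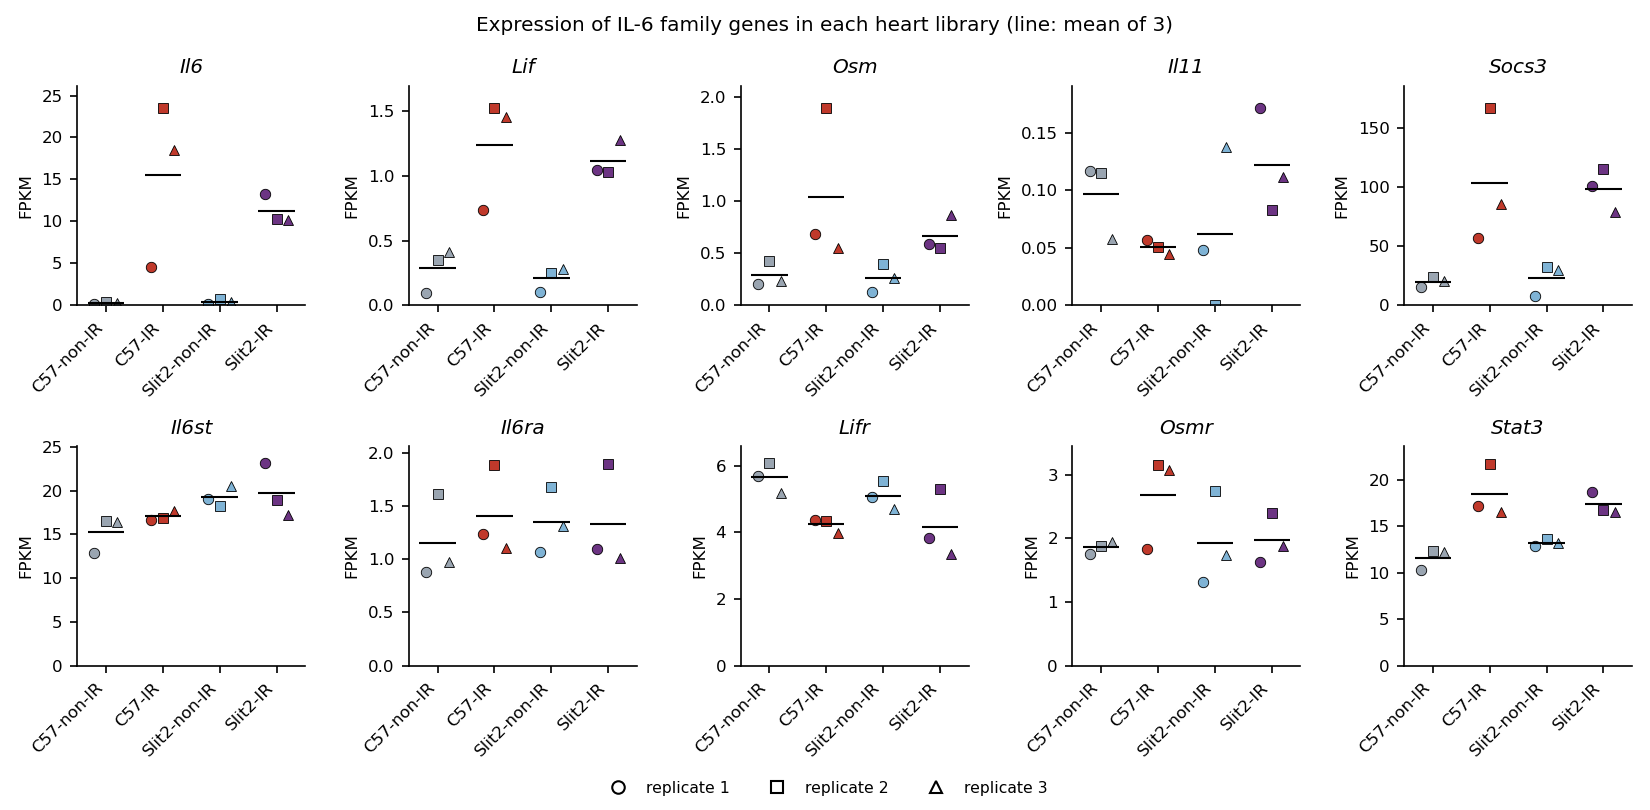
FPKM (vertical axes, each from 0) of the 10 members in the 12 libraries, by group on the horizontal axis, with symbols for the replicate number and a line at the mean of 3. Il6, Lif, Osm, Socs3 and Stat3 lie higher in all 6 IR libraries than in all 6 non-IR libraries, whereas Il6ra and Osmr overlap between IR and non-IR hearts in both genotypes.

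Il6 (ENSMUSG00000025746, chr5:30013114-30019981) encodes the founding cytokine of the family, made by many cell types during tissue injury. Its level was 0.121, 0.420 and 0.333 FPKM in the C57-non-IR libraries and 4.51, 23.5 and 18.5 FPKM in the C57-IR libraries. In Slit2-Tg hearts it was 0.119, 0.696 and 0.342 FPKM without ischemia and 13.2, 10.3 and 10.1 FPKM after IR. Neither pair of groups overlapped, and the lowest C57-IR library was still 10.7 times the highest C57-non-IR library. In Slit2-Tg hearts the corresponding factor was 14.5. Mean Il6 was 0.291 ± 0.154 FPKM (SD, n = 3) in C57-non-IR and 15.5 ± 9.84 FPKM in C57-IR hearts, a ratio of 53.2. The Slit2-Tg means were 0.386 ± 0.291 and 11.2 ± 1.73 FPKM, a ratio of 29.1. These ratios rest on few reads at their lower end, 5 to 39 per non-IR library, against 191 to 1125 per IR library.

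Il6 rose in both genotypes. The log2 fold change of FPKM + 1 was 3.43 in C57BL/6J hearts (95% interval 2.48 to 4.37, limma adjusted p = 0.0144) and 3.15 in Slit2-Tg hearts (2.20 to 4.10, limma adjusted p = 0.0182). Averaged over genotypes it was 3.29 (2.62 to 3.96, limma adjusted p = 0.000501), and this call held in 18 of 18 alternative analyses with adjusted p between 4.7e-07 and 0.00328. The call within C57BL/6J hearts held in 11 of 19 alternatives (adjusted p 7.5e-06 to 0.113). It was lost when any C57 library other than C57-IR replicate 1 was left out (adjusted p 0.0532 to 0.0959). Within Slit2-Tg hearts the call held in 13 of 19 (1.63e-05 to 0.0953), and it was lost without any Slit2-Tg library other than Slit2-IR replicate 3 (0.0538 to 0.0953).

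Lif (ENSMUSG00000034394, chr11:4257557-4272514) encodes leukemia inhibitory factor, a cytokine that acts on cardiomyocytes as well as on many other cells. It was lower than Il6 after IR but moved the same way. The C57-non-IR libraries had 0.0945, 0.351 and 0.412 FPKM and the C57-IR libraries 0.738, 1.53 and 1.45 FPKM. Slit2-non-IR libraries had 0.0997, 0.249 and 0.282 FPKM and Slit2-IR libraries 1.04, 1.03 and 1.28 FPKM. The groups did not overlap in either genotype, although Lif was counted from only 7 to 142 reads per library. The ratio of means was 4.33 in C57BL/6J hearts and 5.32 in Slit2-Tg hearts. Lif rose by 0.79 on the log2 scale in C57BL/6J hearts (0.47 to 1.10, limma adjusted p = 0.0470) and by 0.81 in Slit2-Tg hearts (0.49 to 1.12, limma adjusted p = 0.0404). The averaged effect was 0.80 (0.58 to 1.02, limma adjusted p = 0.00237) and was called in 18 of 18 alternatives. The calls within a genotype were close to the threshold and held in 3 of 19 alternatives for C57BL/6J hearts (adjusted p 0.00345 to 0.210) and 9 of 19 for Slit2-Tg hearts (0.00643 to 0.151). Of the 12 libraries, only C57-IR replicate 1 could be left out without losing the C57BL/6J call (the rest gave 0.0541 to 0.210). The Slit2-Tg call was lost without any Slit2-Tg library or any of C57-non-IR replicates 2 and 3 and C57-IR replicate 3 (0.0583 to 0.151).

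Osm (ENSMUSG00000058755, chr11:4236420-4241026) encodes oncostatin M, a cytokine known mainly from leukocytes. Its values were 0.207, 0.428 and 0.229 FPKM in C57-non-IR and 0.681, 1.90 and 0.548 FPKM in C57-IR hearts. In Slit2-Tg hearts they were 0.127, 0.401 and 0.261 FPKM without ischemia and 0.585, 0.548 and 0.869 FPKM after IR. All 6 IR libraries were above all 6 non-IR libraries, yet Osm did not pass the adjusted threshold. The averaged log2 fold change was 0.51 (0.20 to 0.81, unadjusted p = 0.00385, limma adjusted p = 0.0784). It was called in 4 of 18 alternatives, namely a pseudocount of 0.1 (0.0418), blocked replicate numbers (0.0469) and leaving out C57-IR replicate 2 (0.0418) or C57-IR replicate 3 (0.0428). The values were 0.61 in C57BL/6J hearts (limma adjusted p = 0.295) and 0.40 in Slit2-Tg hearts (limma adjusted p = 0.488). The ratios of means were 3.62 and 2.54. Between 6 and 85 reads per library lay behind these levels.

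Il11 (ENSMUSG00000004371, chr7:4772373-4782857), a cytokine linked to stromal cells and fibrosis, was close to undetected and was not tested. It had 0 to 7 reads per library and at most 0.171 FPKM. Summed over 3 libraries there were 11 reads in C57-non-IR hearts (exact 95% Poisson interval 5.49 to 19.7) and 6 in C57-IR hearts (2.20 to 13.1). Slit2-non-IR hearts had 9 reads (4.12 to 17.1) and Slit2-IR hearts 16 (9.15 to 26.0). Per library there were 4, 5 and 2 reads in C57-non-IR, 2, 2 and 2 in C57-IR, 2, 0 and 7 in Slit2-non-IR and 7, 4 and 5 in Slit2-IR hearts. The Slit2-IR libraries were thus above the C57-IR libraries, and the C57-IR libraries were just below the C57-non-IR libraries in FPKM (highest 0.0570, lowest 0.0574), but these orders rest on a few reads and were not tested. The intervals cover counting error only.

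Socs3 (ENSMUSG00000053113, chr11:117966079-117970047), the feedback inhibitor induced by STAT3, was the most abundant member by mean FPKM in every group. It measured 15.5, 23.6 and 20.6 FPKM in C57-non-IR and 57.1, 166.9 and 86.0 FPKM in C57-IR hearts. The Slit2-non-IR libraries had 7.77, 32.0 and 29.8 FPKM and the Slit2-IR libraries 101.1, 115.1 and 78.5 FPKM. Every IR library exceeded every non-IR library, but the libraries within a group were far apart, by a factor of 2.92 from the lowest to the highest in C57-IR and 4.12 in Slit2-non-IR. Mean Socs3 was 19.9 ± 4.10 and 103.3 ± 56.9 FPKM (SD, n = 3) in C57BL/6J hearts, a ratio of 5.20. It was 23.2 ± 13.4 and 98.2 ± 18.5 FPKM in Slit2-Tg hearts, a ratio of 4.23.

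Averaged over genotypes, Socs3 rose by 2.22 on the log2 scale (1.47 to 2.98, limma adjusted p = 0.00545) and was called in 19 of 19 alternatives (0.00154 to 0.0218). Within one genotype the same size of difference missed the threshold, at 2.20 in C57BL/6J hearts (1.13 to 3.27, limma adjusted p = 0.0928) and 2.24 in Slit2-Tg hearts (1.17 to 3.31, limma adjusted p = 0.0735). Same-numbered libraries deviated together in all 3 Slit2-Tg pairs and in 2 of 3 C57BL/6J pairs. Blocking by replicate number took both values past the threshold (limma adjusted p = 0.0260 in C57BL/6J and 0.0206 in Slit2-Tg hearts). Leaving out C57-IR replicate 1 (0.0371) or Slit2-non-IR replicate 1 (0.0286) also brought the C57BL/6J value past it. So did leaving out C57-IR replicate 2 for the Slit2-Tg value (0.0407).

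Stat3 (ENSMUSG00000004040, chr11:100885098-100939540), the transcription factor that carries the signal to the nucleus and is itself among its targets, showed a small difference. The C57-non-IR libraries had 10.2, 12.3 and 12.3 FPKM, and the C57-IR libraries had 17.2, 21.7 and 16.5 FPKM. The Slit2-non-IR libraries had 12.9, 13.6 and 13.2 FPKM, and the Slit2-IR libraries had 18.7, 16.8 and 16.6 FPKM. No IR library overlapped a non-IR library, and the spread was narrow, with SDs of 0.355 to 2.82 FPKM. Ratios of means were 1.59 in C57BL/6J and 1.31 in Slit2-Tg hearts. Stat3 rose by 0.49 averaged over genotypes (0.32 to 0.67, limma adjusted p = 0.00671) and was called in 19 of 19 alternatives (0.00572 to 0.0201). It rose by 0.62 in C57BL/6J hearts (0.37 to 0.87, limma adjusted p = 0.0470), a call that held in 5 of 20 alternatives (0.0289 to 0.206). Only C57-IR replicate 1 could be left out without losing it (the rest gave 0.0574 to 0.175). The Slit2-Tg value was 0.36 (0.12 to 0.61, limma adjusted p = 0.207) and was called in 0 of 20. Stat3 shares 72 bases at its end with Stat5a on the opposite strand, which had 2.11 to 4.05 FPKM, and how reads there were assigned is not given in the sources used here.

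The shared receptor chain was abundant in every heart and did not pass a test of IR. Il6st (ENSMUSG00000021756, chr13:112464070-112510086) measured 12.9, 16.5 and 16.4 FPKM in C57-non-IR, 16.6, 16.8 and 17.7 FPKM in C57-IR, 19.0, 18.2 and 20.6 FPKM in Slit2-non-IR and 23.1, 19.0 and 17.2 FPKM in Slit2-IR hearts. The C57-IR libraries lay just above the C57-non-IR libraries, whereas the Slit2-Tg groups overlapped. The averaged IR difference was 0.091 (-0.097 to 0.28), so the interval reached at most 0.28 on the log2 scale.

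Lifr (ENSMUSG00000054263, chr15:7129559-7197489) was the only tested member with a lower level after IR in both genotypes. It was 5.68, 6.08 and 5.20 FPKM in C57-non-IR and 4.39, 4.34 and 3.99 FPKM in C57-IR hearts, without overlap. In Slit2-Tg hearts it was 5.06, 5.55 and 4.70 FPKM without ischemia and 3.82, 5.30 and 3.36 FPKM after IR, with replicate 2 inside the non-IR range. The ratios of means were 0.750 and 0.815. Its averaged log2 fold change was -0.30 (-0.50 to -0.0997, unadjusted p = 0.00712), and it missed the adjusted threshold (limma adjusted p = 0.111). It passed in 2 of 19 alternatives, without Slit2-IR replicate 2 (0.0259) and with replicate numbers blocked (0.0406).

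The ligand-specific chains Il6ra and Osmr were low, and each had 1 replicate number at the same extreme in all 4 groups. Il6ra (ENSMUSG00000027947, chr3:89864059-89913196) ranged from 0.876 to 1.89 FPKM, with an averaged IR difference of 0.071 (-0.21 to 0.35). In each of the 4 groups its highest library was replicate 2, at 1.61, 1.88, 1.68 and 1.89 FPKM, above all 8 remaining libraries at 0.876 to 1.31 FPKM. Il6ra overlaps the antisense gene Gm42809 by 281 bases, and that gene had at most 2 reads in a library. Osmr (ENSMUSG00000022146, chr15:6813577-6874969) ranged from 1.31 to 3.16 FPKM, with an averaged IR difference of 0.19 (-0.10 to 0.49). Its lowest library was replicate 1 in all 4 groups. Lifr was lowest in replicate 3 in all 4 groups, and Socs3 was highest in replicate 2 in all 4. How many of all tested genes share such an order was not counted, so it is not shown to be particular to these members. The labels name no shared day, litter or batch behind the replicate numbers.

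**Figure D2:**
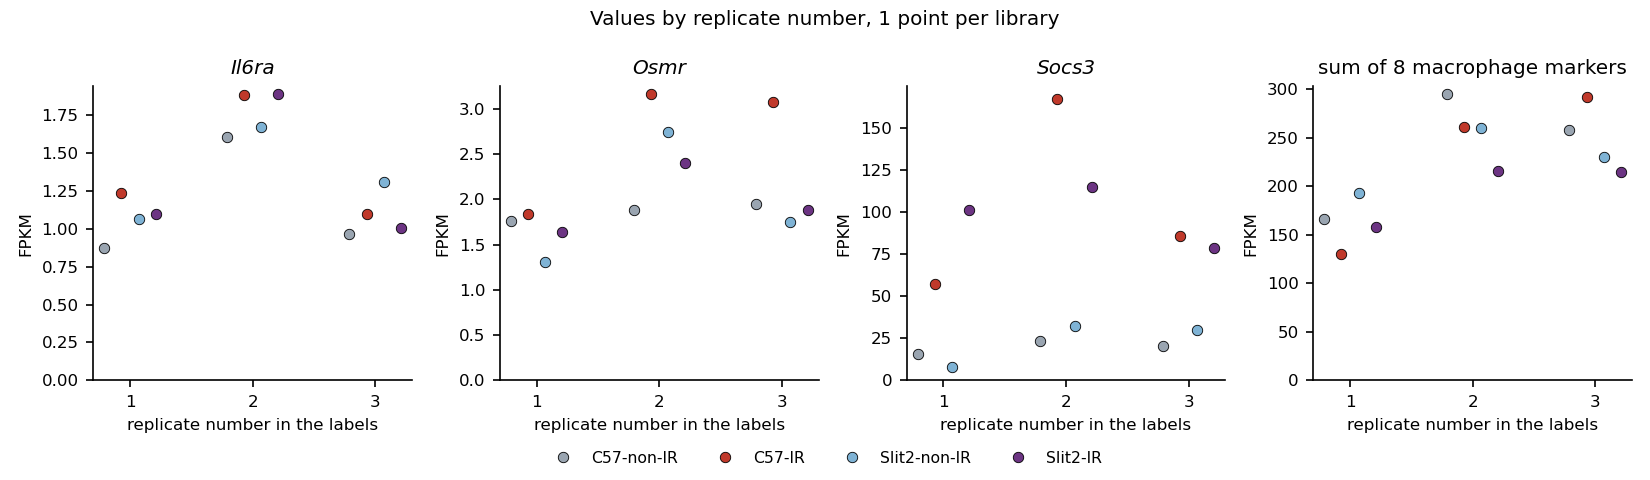
FPKM (vertical axes, each from 0) of Il6ra, Osmr, Socs3 and the sum of 8 macrophage markers against the replicate number of the labels, 1 point per library, coloured by group. Il6ra is highest in replicate 2 (1.61 to 1.89 FPKM), and Osmr and the macrophage sum are lowest in replicate 1 within every group.

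Replicate 1 also stood apart in cell type markers. Macrophage markers (8 genes) summed to 130.2 to 192.7 FPKM in the 4 libraries of replicate 1 and to 214.1 to 294.9 FPKM in the other 8 libraries. As sums, fibroblast markers (8 genes) were lowest, and cardiomyocyte markers (8 genes) highest, in replicate 1 of each group. Single genes did not all follow. The fibroblast marker Lum was highest in replicate 1 of Slit2-non-IR (35.2 FPKM) and Slit2-IR hearts (26.5 FPKM). The cardiomyocyte markers Tnnt2 and Tnni3 were not highest in replicate 1 of either Slit2-Tg group. C57-IR replicate 1, which had the lowest macrophage sum of all, also had the least Il6, Lif, Il6st, Socs3 and Osmr of the C57-IR libraries. Il11, Osm, Il6ra, Lifr and Stat3 were lowest in C57-IR replicate 3. Slit2-IR replicate 1 likewise had the lowest macrophage sum of its group, yet it had the most Il6 (13.2 FPKM), Il11, Il6st and Stat3 (18.7 FPKM) there. Among the members only Osmr was lowest in that library. Between IR and non-IR hearts, however, these sums overlapped, with 130.2 to 292.1 against 165.7 to 294.9 FPKM for macrophage and 127.9 to 238.8 against 116.1 to 208.4 FPKM for fibroblast markers. None of the 8 genes of either list was called in any comparison, and the part of these markers in the member results was not tested.

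None of the other marker lists had a called gene in any comparison. Neutrophil markers were near 0, with Ly6g at 0 in all 12 libraries and an 8-gene sum of 0.499 to 1.67 FPKM after IR and 0.477 to 2.05 FPKM without. T and B cell markers (7 genes) summed to at most 0.498 FPKM. Endothelial markers (8 genes) summed to 161.8 to 250.3 FPKM after IR and 167.8 to 248.4 FPKM without, and blood markers (5 genes, mostly near-identical globin copies) to 1.47 to 12.9 and 4.53 to 49.0 FPKM. All 4 tested blood genes were lower after IR in the averaged effect, with a median log2 fold change of -0.85 and an unadjusted p under 0.05 for 2 of them, and the part of blood in the member results was not tested. Adipose markers (6 genes) summed to 0, 0.861 and 0.292 FPKM in C57-non-IR and to 0.122, 14.2 and 17.3 FPKM in C57-IR hearts, with an unadjusted p under 0.05 for 4 of 5 tested genes and 0 called by limma. The 2 high libraries were also those with the most Il6 and Lif, and the part of adipose tissue in these results was not tested. In Slit2-Tg hearts the adipose sums were 1.41, 6.68 and 8.01 FPKM without ischemia and 10.1, 1.71 and 0.772 FPKM after IR, whereas Il6 was 10.1 to 13.2 FPKM in all 3 IR libraries. Slit2-IR replicate 1 had an atrial marker sum of 1714 FPKM, against 19.9 to 232.7 FPKM in the other 11. Without it the averaged rises were 3.23 for Il6, 0.81 for Lif, 2.21 for Socs3 and 0.47 for Stat3, all still called by limma (adjusted p 0.00256, 0.00729, 0.0175 and 0.0201). C57-IR replicate 2 was next, with the atrial genes Myl7 at 108 FPKM and Sln at 19.5 FPKM. It also had the most Il6, Lif, Osm, Socs3 and Stat3 of all 12 libraries. The averaged calls of Il6, Lif, Socs3 and Stat3 held without that library too. The part of atrial tissue in these results was not tested. Mesothelial markers (6 genes) summed to 2.05 to 5.66 and 0.872 to 4.77 FPKM, and lung markers (6 genes) to 0.0582 to 11.1 and 0.0597 to 12.5 FPKM.

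Within each genotype, the members passed the tests of IR as follows. In C57-IR against C57-non-IR hearts, 3 of 9 tested members were called, all higher (Il6, Lif and Stat3), beside 0.439% of all tested genes. At an unadjusted p under 0.05 there were 6 of 9 members against 8.96% of all genes, and 7 of 9 members had groups that did not overlap (6 higher and 1 lower) against 13.8%. After IR in Slit2-Tg hearts, against Slit2-non-IR, 2 of 9 members were called (Il6 and Lif) beside 0.505% of all tested genes. The unadjusted count was 4 of 9 against 11.2%, and the groups did not overlap for 5 of 9 members, all higher, against 17.0%. When replicate numbers were blocked, 3 members were called in Slit2-Tg hearts, among 194 genes rather than 77.

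**Figure D3:**
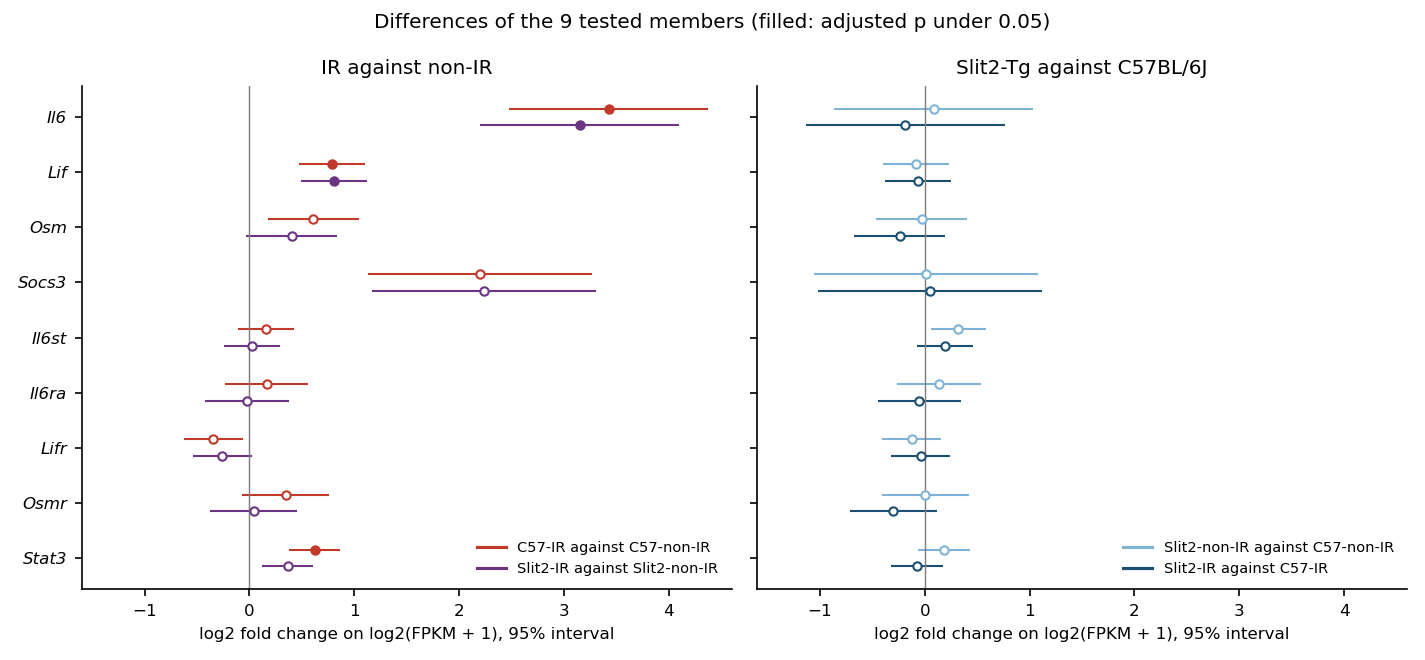
Log2 fold changes of FPKM + 1 with 95% intervals (horizontal axis) of the 9 tested members, for IR against non-IR (left) and Slit2-Tg against C57BL/6J hearts (right), with filled points where the limma adjusted p is under 0.05. Il6 and Lif are filled in both IR comparisons and Stat3 in C57BL/6J hearts only, and no point is filled on the right.

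IR also changed the order of the members by level. Among non-IR hearts Il6 stood 7th of 10 by mean FPKM, and its range overlapped those of Osm and Lif next below it. After IR it stood 4th in both genotypes. In C57-IR hearts it came behind Socs3, Stat3 and Il6st and overlapped Il6st, and in Slit2-IR hearts its libraries lay below those of Stat3 and above those of Lifr. In both IR groups Lifr came next, without overlap, before Osmr, Il6ra and Lif, whose ranges overlapped from each to the next, and Il11 was last in all 4 groups. Socs3 overlapped Il6st in both non-IR groups but in neither IR group.

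No gene of the 4 other pathway lists passed the adjusted threshold in any comparison. Of 8 other gp130 cytokine genes, 4 were tested and 0 were called in any comparison. The most abundant was Ctf1 (cardiotrophin-1), at a mean of 2.94 FPKM over 12 libraries. Of 4 other receptor chains, 3 were tested and 0 called, led by the IL-11 receptor gene Il11ra1 at 14.5 FPKM and the ciliary neurotrophic factor receptor gene Cntfr at 2.40 FPKM. Thus the receptor for IL-11 was transcribed at a level near that of Il6st while its ligand had almost no reads. Of 10 JAK kinases and other STATs, 9 were tested and 0 called, with Jak1 at 17.0 FPKM or more in every library and Stat5b at a mean of 14.2 FPKM. All 15 other inhibitors of JAK-STAT signalling were tested and 0 were called, with the phosphatase gene Ptpn11 at 44.1 FPKM and Cish at 6.83 FPKM. In the averaged IR effect, limma gave an unadjusted p under 0.05 to 0 of the 4 cytokines, 0 of the 3 receptors, 1 of the 9 JAK and STAT genes (lower after IR) and 5 of the 15 inhibitors (2 higher and 3 lower), beside 15.9% of all tested genes. Socs1, a relative of Socs3 singled out after its values were seen, had 1.64, 1.48 and 1.70 FPKM in C57-non-IR and 1.36, 8.52 and 3.57 FPKM in C57-IR hearts. It had 0.909, 1.92 and 2.46 FPKM in Slit2-non-IR and 3.35, 4.90 and 3.02 FPKM in Slit2-IR hearts, so that the groups overlapped in C57BL/6J hearts only. Its averaged difference on log2(FPKM + 1) was 0.83 (0.20 to 1.45, unadjusted p = 0.0140, limma adjusted p = 0.160), called in 1 of 19 alternatives. That is near the value of Lif, but the scale understates Lif more because Lif was lower. Mean Socs1 went from 1.61 to 4.48 FPKM in C57BL/6J and from 1.76 to 3.76 FPKM in Slit2-Tg hearts. Mean Lif went from 0.286 to 1.24 and from 0.210 to 1.12 FPKM, a larger change in proportion.

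Genes known as STAT3 targets, many of which are also induced by other factors, were higher after IR in several cases. The list of 26 was chosen with earlier results of these data known, and 22 were tested. In the averaged IR effect 6 of them rose and 0 fell, beside 3.48% of all tested genes called in either direction. The 6 called were Myc, Pim1, Icam1, Bcl3, Bcl6 and Junb. At an unadjusted p under 0.05, 14 were higher and 1 lower, beside 15.9% of all tested genes, and the median log2 fold change of the 22 was 0.59 against 0.0035 for all tested genes. The 3 called in C57BL/6J hearts were Myc, Pim1 and Bcl3, beside 0.439% of all tested genes, and the 2 called in Slit2-Tg hearts were Myc and Bcl3, beside 0.505%. Leaving out any C57-non-IR library, among others, ended each of the C57BL/6J calls (limma adjusted p 0.135 to 0.186). Leaving out any Slit2-non-IR library or Slit2-IR replicate 1 or 2, among others, ended both Slit2-Tg calls (0.0823 to 0.160).

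Myc, a transcription factor for growth and metabolism, was 2.31, 2.57 and 2.49 FPKM in C57-non-IR, 10.9, 35.8 and 13.7 FPKM in C57-IR, 1.21, 3.77 and 2.79 FPKM in Slit2-non-IR and 28.1, 21.1 and 11.3 FPKM in Slit2-IR hearts. It rose by 2.48 averaged over genotypes (1.82 to 3.15, limma adjusted p = 0.00200), without overlap between IR and non-IR libraries. Pim1, a survival kinase, went from 9.47 to 21.5 FPKM in the 6 non-IR libraries to 29.1 to 69.3 FPKM in the 6 IR libraries. Its averaged rise was 1.72 (1.17 to 2.26, limma adjusted p = 0.00428). Bcl3, a nuclear IkappaB protein, had 1.39 to 2.47 FPKM without ischemia and 4.88 to 12.5 FPKM after IR, a rise of 1.58 (SE 0.19, limma adjusted p = 0.00200). The adhesion molecule gene Icam1 had 2.59 to 5.94 FPKM without ischemia and 7.39 to 27.2 FPKM after IR, a rise of 1.70 (1.14 to 2.27, limma adjusted p = 0.00492). These 4 calls held in 19 of 19 alternatives each. When replicate numbers were blocked, Icam1 was also called within each genotype. It rose by 1.70 in C57BL/6J hearts (limma adjusted p = 0.0312) and by 1.70 in Slit2-Tg hearts (limma adjusted p = 0.0308, against 0.0709 without the block).

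Junb, an AP-1 subunit, was already abundant without ischemia, at 52.3 to 178.9 FPKM, and reached 226.1 to 570.9 FPKM after IR. Its averaged rise of 1.48 (limma adjusted p = 0.0298) held in 12 of 19 alternatives. It was lost without any C57-non-IR library, C57-IR replicate 2 or Slit2-IR replicates 1 and 2 (0.0621 to 0.0725). Bcl6, a transcriptional repressor, rose by 0.65 (limma adjusted p = 0.0324), called in 11 of 19. Its call was lost without C57-non-IR replicates 1 and 3, C57-IR replicates 2 and 3, Slit2-non-IR replicates 2 and 3 or Slit2-IR replicate 2 (0.0662 to 0.0884). Bcl6 had 1.35 to 2.07 FPKM in C57-non-IR, 3.22 to 4.71 FPKM in C57-IR, 2.21 to 4.09 FPKM in Slit2-non-IR and 3.40 to 5.31 FPKM in Slit2-IR hearts, so the Slit2-Tg groups overlapped. The 16 other tested targets did not pass the adjusted threshold in the averaged effect, among them Fos, Mcl1, Bcl2l1, Hif1a and the acute-phase genes Hp and Lbp. Bcl2l1 was lower in C57-IR (5.91 to 11.8 FPKM) than in C57-non-IR hearts (14.3 to 20.8 FPKM), without overlap. Its Slit2-Tg groups overlapped, at 7.47 to 14.7 FPKM without ischemia and 6.55 to 11.7 FPKM after IR.

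**Figure D4:**
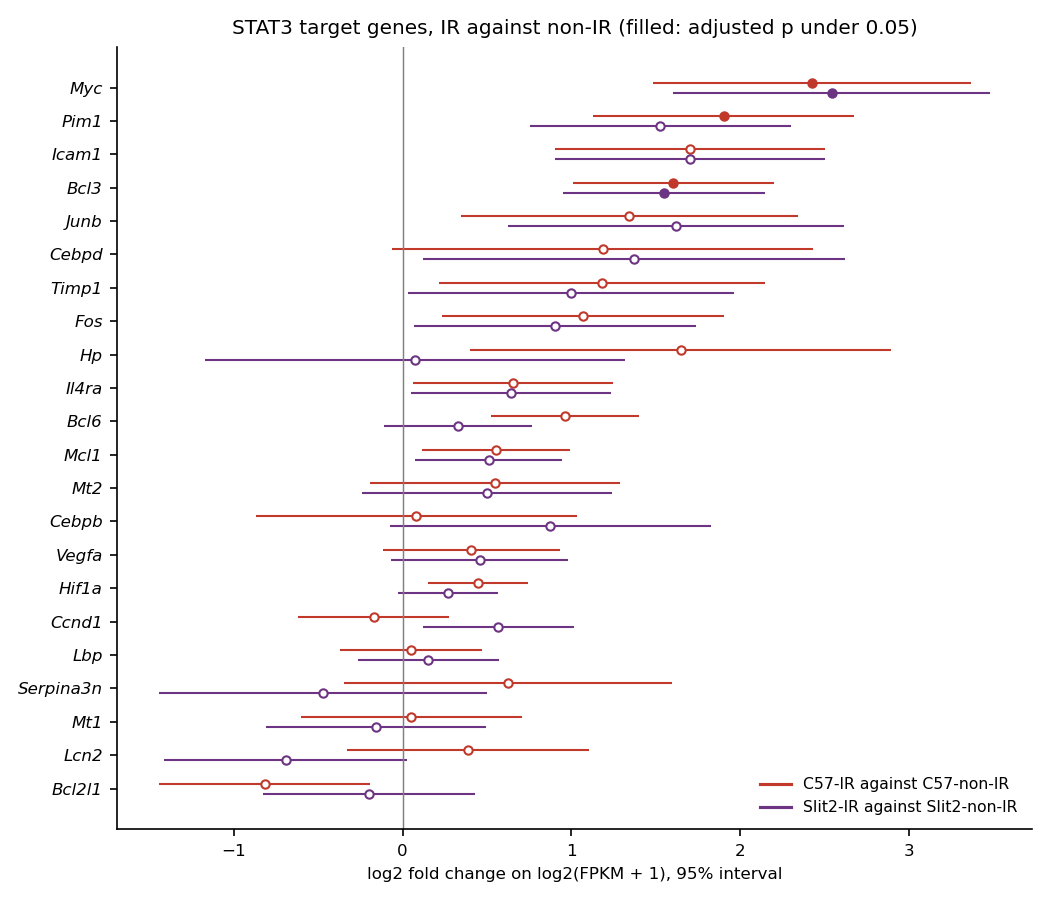
Log2 fold changes of FPKM + 1 after IR with 95% intervals (horizontal axis) of the 22 tested STAT3 target genes in C57BL/6J and Slit2-Tg hearts, with filled points where the limma adjusted p is under 0.05. Myc and Bcl3 are filled in both genotypes and Pim1 in C57BL/6J hearts, and the intervals of the acute-phase gene Lbp include 0 in both.

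No member differed between the genotypes at the adjusted threshold. In Slit2-non-IR against C57-non-IR hearts 0 of 9 members were called by limma, beside 0.0393% of all tested genes, and 1 of 9 had an unadjusted p under 0.05 against 3.18%. That member was Il6st, at 19.3 ± 1.20 FPKM in Slit2-non-IR and 15.3 ± 2.05 FPKM in C57-non-IR hearts (SD, n = 3). All 3 Slit2-non-IR libraries were above the 3 C57-non-IR libraries, with a log2 difference of 0.32 (0.055 to 0.59, unadjusted p = 0.0224, limma adjusted p = 0.9995). The groups did not overlap for 2 of 9 members, Il6st and Stat3, both higher in Slit2-non-IR hearts, against 9.18% of all genes. Stat3 differed by 0.18 (-0.066 to 0.43).

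After IR, 0 of 9 members were called between Slit2-IR and C57-IR hearts by limma, beside 0.0459% of all tested genes. At an unadjusted p under 0.05 there were also 0, against 3.16%, and 0 members had groups that did not overlap, against 6.47%. The difference in Il6 was -0.19, but its interval of -1.14 to 0.76 leaves room for sizeable differences either way. Stat3 was held more tightly, at -0.077 (-0.32 to 0.17). Lif differed by -0.063 (-0.38 to 0.25), but near 1 FPKM the added 1 narrows this interval. For the IR effect of Lif in C57BL/6J hearts, the SE was 0.14 on this scale. It was 0.39 with a pseudocount of 0.1 and 0.51 with limma-voom. Socs3 differed by 0.051 (-1.02 to 1.12), Il6st by 0.19 (-0.074 to 0.46) and Osmr by -0.30 (-0.71 to 0.12). The spread of Il6 was wider in C57-IR hearts, where the highest library was 5.21 times the lowest, than in Slit2-IR hearts, where it was 1.30 times, and the spreads were not tested.

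The test of whether IR acted differently in the 2 genotypes called 0 of 9 members, beside 0% of all tested genes. An unadjusted p under 0.05 was given by limma to 0 members and to 1.85% of all genes. The interaction was -0.27 for Il6 (-1.62 to 1.07), 0.039 for Socs3 (-1.47 to 1.55), -0.26 for Stat3 (-0.61 to 0.092), 0.019 for Lif (-0.42 to 0.46) and -0.30 for Osmr (-0.89 to 0.28). The C57BL/6J call of Stat3 and the lack of one in Slit2-Tg hearts are therefore not shown to differ.

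The genes whose profiles over the 12 libraries lay nearest to Il6 and Socs3 were found by the root mean square difference of standardized log2 values, a description in which members and neighbours share the same libraries. Nearest to Il6 were Adamts4, a protease of matrix proteoglycans, at 0.0967, Sphk1, which makes sphingosine-1-phosphate, at 0.133, Gadd45g at 0.180, Tnfaip6, a hyaluronan-binding protein, at 0.193 and Ugdh, an enzyme for glycosaminoglycan precursors, at 0.197. Adamts4 went from 0.0482 to 0.180 FPKM in the 6 non-IR libraries to 2.84 to 11.96 FPKM in the 6 IR libraries. Among the members, Lif was the 14th nearest gene to Il6, Socs3 the 96th and Stat3 the 147th. Nearest to Socs3 were Maff at 0.154, the nuclear receptor gene Nr4a1 at 0.169, Junb at 0.171, Nfkbiz at 0.176 and the small GTPase gene Gem at 0.177. Maff, a small MAF transcription factor, had 3.98 to 13.5 FPKM without ischemia and 22.7 to 83.8 FPKM after IR. Il6 was the 81st nearest gene to Socs3.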

How the data were processed

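RNA from 12 mouse hearts was sequenced by the authors as paired-end Illumina libraries (NEBNext Ultra RNA kit). The authors deposited 1 FPKM value for each gene in each library, with gene identifiers, lengths and coordinates. HISAT2 and mm10 are named in the submitters' processing notes. The counting tool, annotation release and use of strand are not given in the sources used here, so overlapping and antisense genes are uncertain. FPKM multiplied by gene length came out as whole multiples of 1 read for 100% of values (tolerance 0.05), so reads per gene and depth (16601154 to 24841291 reads on genes, median 21010128) were recovered. A level from few reads is imprecise, as stated beside it.

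Genotype was taken from the labels, and IR or non-IR was read from the letters of the sample titles against the groups in the methods. Each group holds 3 independent samples by the labels, and an exact test of 3 against 3 cannot go below p = 0.1. Members and gene lists were chosen with earlier results of these data known. Values were log2(FPKM + 1). Genes with at least 10 reads, scaled to the median library, in 3 or more libraries and 15 reads in all were tested (15258 of 52858) with limma 3.58.1 (R 4.3.3) with a mean-variance trend, over all 12 libraries with 8 residual degrees of freedom. The contrasts were read from this fit beside the interaction, and those against the same group share its libraries. P-values were adjusted by Benjamini-Hochberg over all tested genes. The script was tested on simulated data. Alternatives were a pseudocount of 0.1, testing every gene with 1 read, requiring 10 reads in all libraries, fitting the 6 compared libraries alone, blocking by replicate number, TMM scaling (which differed by at most 0.028 on the log2 scale), limma-voom on the recovered reads, a robust prior variance and leaving out each library. The genes named were the members, list genes called in any contrast, the 2 most abundant genes of a list without calls, and the 5 genes nearest to Il6 and to Socs3. Socs1, Fos, Mcl1, Bcl2l1, Hif1a, Hp, Lbp and single marker genes were named after their values were seen.

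Same-numbered libraries were said to deviate together where their deviations from the group means had a correlation above 0.1. This held in all 3 pairs of Slit2-IR and Slit2-non-IR (correlations 0.142 to 0.295) and of Slit2-IR and C57-IR hearts (0.154 to 0.362). In the other comparisons this held for 2 of 3 pairs. The pairing comes from these correlations alone. The level of the human transgene and 1 gene named by these rules are not reported here. Promoter windows came from RefSeq (GRCm38.p6), and exons from the mouse annotation of the same build. Python 3.11.15 with pandas 2.3.3, numpy 2.4.6 and matplotlib 3.10.9 was used.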

Additional observations from a re-analysis of the deposited data

How the results depend on the processing

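The averaged IR calls of Il6, Lif, Socs3 and Stat3 held under every alternative in which each was tested, so the statements resting on both genotypes together are the firmest. The calls within a genotype were less stable. In C57BL/6J hearts, 67 genes were called after IR, against 7 with no filter beyond 1 read, 9 with only the 6 libraries compared, 171 with the replicate block and 29 with limma-voom. The 3 members called there became 0 with no filter, 1 with at least 10 reads in every library, 0 with only 6 libraries, 1 with TMM scaling and 0 with limma-voom. The stricter filter removes Il6, Lif and Osm from the tested genes by its construction, and the cause of the other changes was not tested. In Slit2-Tg hearts, 77 genes became 19 with no filter and 194 with the replicate block, and the 2 called members became 0 with no filter and 0 with the stricter filter. Averaged over genotypes, 531 genes became 299 with no filter, and the 4 members became 2 with the stricter filter. Between the non-IR groups, 6 genes became 10 with a pseudocount of 0.1, 11 with no filter, 3 with the stricter filter and 2 with the replicate block. Between the IR groups, 7 genes became 3 with the stricter filter and 4 with only 6 libraries. The interaction went from 0 genes to 4 with no filter.

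With the replicate block, 3 members were called in Slit2-Tg hearts, 4 in C57BL/6J hearts and 6 in the averaged effect, where Osm (limma adjusted p = 0.0469) and Lifr (0.0406) were added. In the C57BL/6J comparison and between the non-IR groups, where only 2 of 3 pairs deviated together, the samples may share only a number. The blocked fit changed no call of a member in either genotype comparison or the interaction.

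Leaving out 1 library at a time gave 3 to 254 genes and 0 to 4 members in C57BL/6J hearts, 4 to 178 genes and 0 to 3 members in Slit2-Tg hearts, and 329 to 713 genes and 4 to 5 members in the averaged effect. It gave 1 to 14 genes between the non-IR groups, 4 to 12 between the IR groups and 0 to 1 for the interaction, with 0 members in each. Values near 0 changed sign. In Slit2-Tg hearts after IR the log2 fold change ran from -0.19 to 0.077 for Il6ra, -0.087 to 0.12 for Il6st and -0.12 to 0.23 for Osmr, and the averaged value for Il6ra from -0.011 to 0.14. Between the IR groups it ran from -0.85 to 0.23 for Il6, -0.24 to 0.035 for Lif, -0.30 to 0.46 for Socs3 and -0.15 to 0.039 for Stat3. The interaction ran from -0.94 to 0.14 for Il6, -0.58 to 0.45 for Socs3 and -0.067 to 0.20 for Lifr. Depth limits Il11, which could not be tested, and the non-IR levels of Il6, Lif and Osm.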

Other observations

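Il6ra was not alone in being highest in replicate 2 of every group. The scavenger receptor gene Cd163, a marker of resident macrophages and 1 of the 8 macrophage markers, had 17.1 and 13.3 FPKM in replicate 2 of C57-non-IR and C57-IR hearts, 15.4 and 13.4 FPKM in replicate 2 of the non-IR and IR Slit2-Tg hearts, and at most 12.2 FPKM in the other 8 libraries. Cd163 was singled out after its values were seen. Of the same list, Csf1r was also highest in replicate 2 of every group. Adgre1, Cd68, C1qa, C1qb, C1qc and Mrc1 were not, being highest in replicate 3 of C57-IR hearts. The share of all tested genes with this order was not counted. The 8-gene macrophage sum was highest in replicate 2 in 3 of 4 groups.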
